A study of Mus musculus with 9 samples.

Results

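The transcription factors of the isthmic organizer were followed in dissected midbrain tissue of mouse fetuses (strain C57BL/6) at the embryonic stage E13.5. The 7 genes En1, En2, Pax2, Pax5, Pax8, Otx2 and Gbx2 were picked by their symbols among the 27360 rows of the expression table, and each has 1 row of its own. All 7 were among the 14029 genes tested. RNA sequencing had been carried out on 9 libraries, 3 for each genotype. The floxed control carried Gpr161 f/f without Cre, the Cre control carried Gpr161 f/+;Wnt1-Cre, and the cKO carried Gpr161 f/f;Wnt1-Cre (spelled Gpt161f/f;Wnt1-Cre in its labels). All fetuses thus had at least 1 floxed Gpr161 allele, and the Cre control and the cKO shared the Wnt1-Cre transgene. This transgene drives Cre from Wnt1 regulatory sequence, at first in the dorsal midbrain and the neural crest. The paper reports that before the stage sampled here Cre had spread more widely in the neural tube, to midbrain and hindbrain. Cells of a midbrain sample outside this lineage keep their floxed alleles. The sources used here do not say whether the fetuses of a genotype came from the same litter, and the p-values measure the spread between these samples.

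The isthmic organizer is the band of cells at the boundary of midbrain and hindbrain that instructs the tissue on both sides through secreted Fgf8 and Wnt1. Otx2 marks the midbrain side and Gbx2 the hindbrain side, and the mutual repression of this pair positions the boundary. Pax2 appears early in this territory, followed by En1, Pax5, En2 and Pax8, and these factors and the secreted signals maintain one another. Pax2, Pax5 and Pax8 form a single subfamily of paired box factors with closely related DNA-binding domains. En1 and En2 are homeodomain proteins of the engrailed family, and they pattern the tectum and the cerebellum. Later in development several of these genes are also used in neurons. Pax2 and Pax8 occur in inhibitory interneurons of the hindbrain and spinal cord, and Pax2 also in precursors of cerebellar interneurons.

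The 3 paired box genes were the members called in at least 1 comparison. Pax5 and Pax8 rose in the cKO against both controls, while Pax2 fell in the cKO against the floxed control. Pax2 stood about as low in the Cre control as in the cKO. En1, En2, Otx2 and Gbx2 did not pass the test in any comparison. In the cKO against the floxed control 19.5% of all genes tested were called higher and 18.8% lower, close to the share of the members. Against the Cre control these shares were 4.86% and 4.85%.

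The sequences just upstream of the start sites of these 3 genes are shown because they are the members whose level passed a test. They were read from the RefSeq promoter table (GRCm38.p6), where 6 of the 7 genes had an entry, and each run is the 250 bases before the annotated start, 5′ to 3′ on the strand of the gene. Capitals mark the matches to the motifs searched. The Pax5 window lies at chr4:44710695-44710944 on the minus strand, and the Pax8 window at chr2:24475600-24475849 on the minus strand. Pax2 has 3 start sites in this table, and the window shown, chr19:44755502-44755751 on the plus strand, belongs to the start nearest to that of its longest transcript.
Pax5: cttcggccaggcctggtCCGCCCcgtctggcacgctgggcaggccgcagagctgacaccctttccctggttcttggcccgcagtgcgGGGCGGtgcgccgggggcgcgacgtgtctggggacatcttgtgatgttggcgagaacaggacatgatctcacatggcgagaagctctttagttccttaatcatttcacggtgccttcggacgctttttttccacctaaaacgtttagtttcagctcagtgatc
Pax8: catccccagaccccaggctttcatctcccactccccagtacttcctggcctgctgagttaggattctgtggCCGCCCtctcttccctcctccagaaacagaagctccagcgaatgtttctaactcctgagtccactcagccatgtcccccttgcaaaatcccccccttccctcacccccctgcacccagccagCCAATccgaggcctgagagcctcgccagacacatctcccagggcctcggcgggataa
Pax2: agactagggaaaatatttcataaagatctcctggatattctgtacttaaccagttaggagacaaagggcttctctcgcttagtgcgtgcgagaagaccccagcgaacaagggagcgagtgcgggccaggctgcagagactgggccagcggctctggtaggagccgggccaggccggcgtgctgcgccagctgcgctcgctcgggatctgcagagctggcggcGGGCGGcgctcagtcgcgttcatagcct
The motifs were searched on both strands. The Pax5 window held the GC box GGGCGG at 2 positions, with the first base 163 and 233 bases before the start, the second on the opposite strand. In the Pax8 window a CCAAT box (CCAAT) began 57 bases and an opposite-strand GC box 179 bases before the start. A GC box began 28 bases before the start in the Pax2 window. A GC box occurred in 32.7% and a CCAAT box in 33.8% of the 32851 promoters of the same length in the table. None of the 3 windows held the Gli motif GACCACCCA, which 0.225% of all promoters held. The Tcf/Lef motif CTTTGAT (3.21% of promoters), the paired domain core GCGTGAC (1.78%), the Otx motif TAATCC (6.25%), the homeodomain core TAATTA (4.84%) and TATAAA (12.4%) were not found in them either. No match says only that these letters are not in the window.

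The levels of the members were given by the deposited log2 values, which the authors had normalized between libraries. Every member was expressed in every library, between 6.92 (Pax2 in Cre control replicate 3) and 12.63 (En2 in Cre control replicate 1) on this scale. The filter on low expression lay between 4.73 and 4.78, below the value of each member in each library. The filter still bears on the adjusted p through the number of genes tested. To compare genes with each other, the linear values were divided by the length of the longest coding transcript in kilobases. With that length En2 was the highest, at 1463 ± 178 (SD, n = 9 libraries), followed by Otx2 at 1035 ± 78.0, En1 at 672 ± 69.4 and Pax5 at 364 ± 72.9. The lower members were Gbx2 at 118 ± 13.0, Pax8 at 83.3 ± 19.7 and Pax2 at 38.6 ± 11.4. Neighbours among the first 5 in this order did not overlap over the 9 libraries, whereas Gbx2 overlapped with Pax8 and Pax8 with Pax2. This order depends on the transcript length used. The 14 coding transcripts of Pax5 run from 324 to 8004 bases, and with the middle length of 1056 bases its level per kilobase was 2755 ± 553, the highest of the 7. With middle lengths Otx2 (1571 ± 118) also came before En2 (1463 ± 178), with overlap between them, and Pax8 (172.5 ± 40.9) before Gbx2 (118 ± 13.0).

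Pax2, an early factor of the organizer, had log2 values of 7.62, 7.48 and 8.14 in the 3 floxed control libraries, 7.16, 7.45 and 6.92 in the Cre control and 7.06, 7.08 and 7.21 in the cKO. All 3 floxed control libraries lay above every other library, and the Cre control and cKO ranges overlapped. The group means were 7.75 ± 0.35, 7.17 ± 0.26 and 7.12 ± 0.082 (SD, n = 3 each). Relative to the floxed control, Pax2 fell in the cKO by 0.63 on the log2 scale, to 0.645 of the floxed control level (95% interval -1.01 to -0.26, limma adjusted p = 0.0146). The cKO and the Cre control differed by -0.058 (interval -0.43 to 0.32, limma adjusted p = 0.842). The Cre control lay 0.57 below the floxed control (log2 fold change -0.57, interval -0.95 to -0.20), with an unadjusted limma p of 0.00642 and an adjusted p of 0.174, which does not pass. Without cKO replicate 1 the adjusted p of the cKO against the floxed control was 0.0517, and without the filter on low expression 0.0560, both above the limit of 0.05.

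Pax5, which is required with Pax2 for the midbrain and cerebellum, had log2 values of 11.45, 11.05 and 11.23 in the floxed control, 11.48, 11.35 and 11.40 in the Cre control and 11.59, 11.92 and 11.87 in the cKO. The 3 cKO libraries were the highest of the 9, and the floxed and Cre controls overlapped. Against the floxed control Pax5 rose in the cKO by 0.56 on the log2 scale, or 1.47-fold (interval 0.32 to 0.79, limma adjusted p = 0.00311). Against the Cre control it rose by 0.39, or 1.31-fold (interval 0.15 to 0.62, limma adjusted p = 0.0473). This call was lost without the filter on low expression (limma adjusted p = 0.128), with only the 6 libraries compared (0.0546), without the trend (0.0545) and with the replicate number as a block (0.0574). The Cre control and the floxed control differed by 0.17 (interval -0.063 to 0.40, limma adjusted p = 0.414).

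Pax8, the last of the subfamily to appear in this territory and better known from the thyroid and kidney, had log2 values of 7.39, 7.30 and 7.77 in the floxed control, 7.53, 7.51 and 7.53 in the Cre control and 7.90, 8.19 and 8.18 in the cKO. Again the cKO libraries were the highest 3, here with the third floxed control library nearest to them. Pax8 rose in the cKO by 0.60 against the floxed control, or 1.52-fold (interval 0.34 to 0.86, limma adjusted p = 0.00375), and by 0.56 against the Cre control, or 1.48-fold (interval 0.30 to 0.83, limma adjusted p = 0.0223). The Cre control and the floxed control differed by 0.037 (interval -0.23 to 0.30, limma adjusted p = 0.885). The calls of Pax5 and Pax8 against the Cre control were each lost when any of 4 libraries was left out. The limma adjusted p of Pax5 was then 0.117 without Cre control replicate 2, 0.126 without Cre control replicate 3, 0.135 without cKO replicate 2 and 0.116 without cKO replicate 3. For Pax8 the same omissions gave 0.0570, 0.0719, 0.0692 and 0.0582, with log2 fold changes that stayed between 0.51 and 0.57, and without the filter on low expression the adjusted p of Pax8 was 0.0687.

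**Figure D1:**
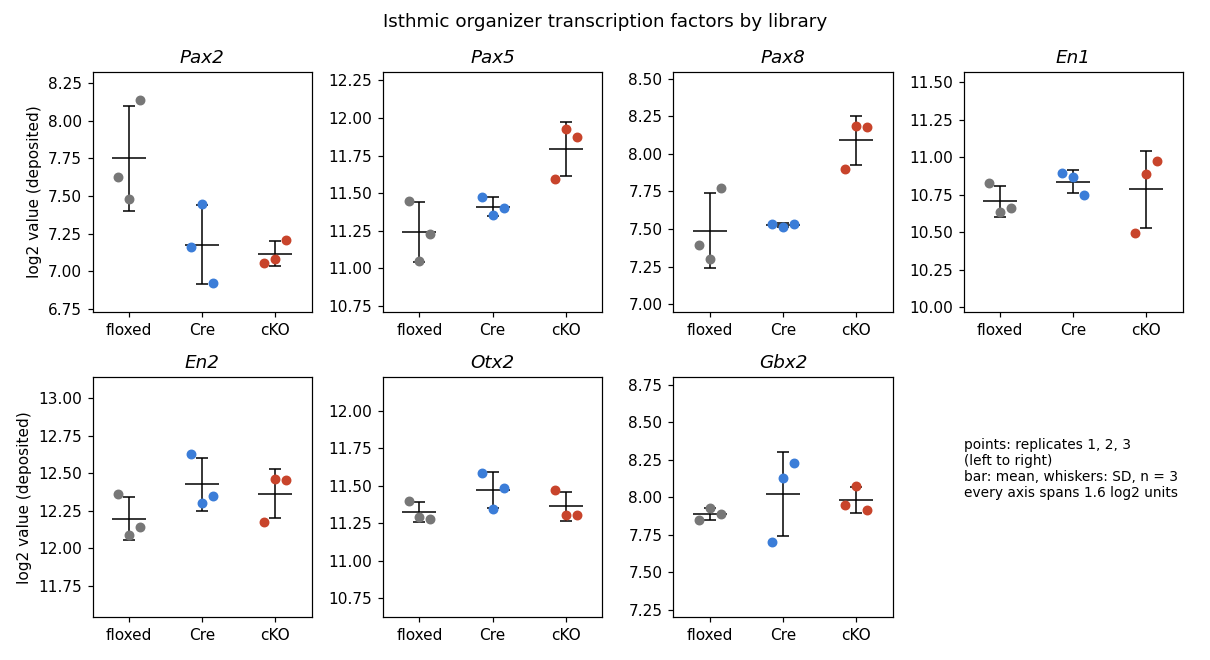
Log2 values (vertical axes, each spanning the same number of log2 units) of the 7 isthmic transcription factors in each library (points), with the mean (bar) and SD (whiskers, n = 3) of the floxed control, Cre control and cKO. The cKO points of Pax5 (11.59 to 11.92) and Pax8 (7.90 to 8.19) lie above all control points, and the floxed control points of Pax2 (7.48 to 8.14) lie above all others.

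En1, which starts early and sustains Fgf8 and Pax expression at the isthmus, had log2 values of 10.82, 10.63 and 10.66 in the floxed control, 10.89, 10.87 and 10.75 in the Cre control and 10.50, 10.89 and 10.97 in the cKO. The lowest and the highest of the 9 libraries were both cKO, so that the cKO enclosed both control groups. Its log2 fold change in the cKO was 0.078 against the floxed control (interval -0.16 to 0.32, limma adjusted p = 0.597) and -0.051 against the Cre control (interval -0.29 to 0.19, adjusted p = 0.785). The lowest library, cKO replicate 1, weighed on this value. Without it En1 was 0.22 higher than in the floxed control and passed, with a limma adjusted p of 0.0435.

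En2, the paralog with the broader and later expression across midbrain and cerebellum, had log2 values of 12.36, 12.09 and 12.14 in the floxed control, 12.63, 12.30 and 12.35 in the Cre control and 12.17, 12.46 and 12.46 in the cKO. The ranges of the 3 genotypes overlapped. The cKO differed by 0.17 from the floxed control (interval -0.070 to 0.40, limma adjusted p = 0.240) and by -0.061 from the Cre control (interval -0.30 to 0.18, limma adjusted p = 0.733). The Cre control exceeded the floxed control by 0.23 without passing (interval -0.0090 to 0.47, limma adjusted p = 0.299).

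Otx2, the determinant of forebrain and midbrain fate, had log2 values of 11.40, 11.30 and 11.28 in the floxed control, 11.58, 11.35 and 11.49 in the Cre control and 11.47, 11.31 and 11.31 in the cKO. These groups overlapped and the spread was the smallest among the 7 members by the standard error of the fit (0.068). Otx2 in the cKO differed by 0.038 from the floxed control (interval -0.11 to 0.19, limma adjusted p = 0.683) and by -0.11 from the Cre control (interval -0.26 to 0.041, limma adjusted p = 0.306).

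Gbx2, the hindbrain counterpart of Otx2, had log2 values of 7.85, 7.93 and 7.89 in the floxed control, 7.70, 8.13 and 8.23 in the Cre control and 7.95, 8.08 and 7.91 in the cKO. The Cre control enclosed both other groups. Gbx2 in the cKO differed by 0.092 from the floxed control (interval -0.17 to 0.35, limma adjusted p = 0.561) and by -0.039 from the Cre control (interval -0.30 to 0.22, limma adjusted p = 0.850). The annotation limits this gene in particular, since 43.5% of the 31-base stretches of its transcripts also occur in transcripts of another gene, the opposite-strand D130058E05Rik or the paralog Gbx1. The corresponding share was 11.6% for Pax8 (opposite-strand Gm13415), 6.81% for Pax5 (opposite-strand 5730488B01Rik) and 0% for Pax2, and the sources used here do not state that strand was kept. No such stretch was shared between Pax2, Pax5 and Pax8 or between En1 and En2.

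Over the 7 members, 2 were called higher and 1 lower (limma, Benjamini-Hochberg adjusted p under 0.05) in the cKO against the floxed control. Of all genes tested, 19.5% were called higher and 18.8% lower in that comparison, a background close to the share of the members. Against the Cre control 2 of 7 were called higher and 0 lower, where the backgrounds were 4.86% and 4.85%. In that comparison the background split between higher and lower moved from 682 and 681 genes to 532 and 831 when the libraries were centred on their medians, and both members were called under either scaling. With the 2 control groups set against each other, 0 of 7 members were called by limma, with or without its trend, and 1, Pax2, had an unadjusted p under 0.05. The backgrounds of that comparison were 0.0499% higher and 0.00713% lower. The median log2 fold changes of the members were 0.092, -0.051 and 0.13 in these 3 comparisons, beside 0.011, 0.012 and -0.0010 over all genes. With a fold change over 1.5 as a further limit, Pax2 and Pax8 passed in the cKO against the floxed control, Pax5 at 1.47-fold lay just under it, and no member passed against the Cre control. The values of the groups did not overlap for 3, 2 and 1 members in the 3 comparisons, beside 57.1%, 31.5% and 22.8% of all genes tested. The comparisons share libraries and are not independent of each other.

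**Figure D2:**
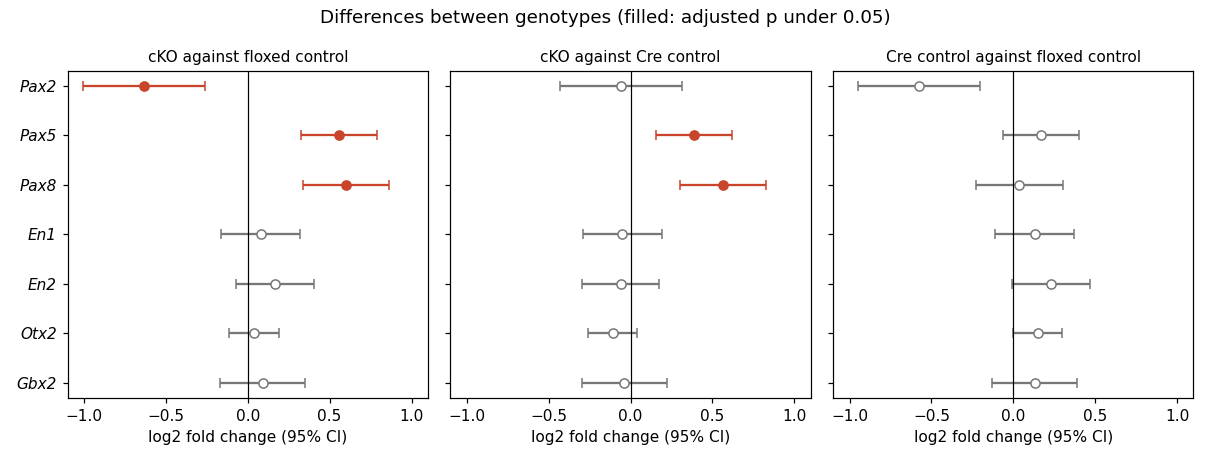
Log2 fold changes (horizontal axes) of the 7 factors in the 3 comparisons, with 95% intervals from limma, where filled points have an adjusted p under 0.05. Pax5 and Pax8 are filled on the right of 0 in both comparisons of the cKO, Pax2 is filled at -0.63 in the first comparison, and no point is filled between the controls.

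The balance between members was read within each library as a difference of log2 values, as a description. Pax8 minus Pax2 was -0.23, -0.18 and -0.37 in the floxed control, 0.37, 0.067 and 0.62 in the Cre control and 0.84, 1.11 and 0.97 in the cKO. The 3 genotypes did not overlap on this measure, with the Cre control in the middle and the cKO highest. Pax5 minus Pax2 ran from 3.08 to 3.82 in the floxed control, from 3.91 to 4.48 in the Cre control and from 4.53 to 4.84 in the cKO, in the same order and again without overlap. Pax2 alone already set the floxed control apart, and Pax5 and Pax8 alone the cKO. The separation by these 2 differences thus largely restates the values of the single genes. How many other gene pairs separate the genotypes was not counted. Pax5 minus Pax8 ran from 3.45 to 4.05 in the floxed control, from 3.84 to 3.94 in the Cre control and from 3.69 to 3.73 in the cKO. The cKO values of this pair fell inside the floxed control range, as Pax5 and Pax8 moved by like amounts against that group. They lay below every Cre control value, as Pax5 rose by 0.39 and Pax8 by 0.56 against the Cre control. En2 minus En1 stayed between 1.43 and 1.73 in all 9 libraries, and Otx2 minus Gbx2 between 3.22 and 3.88, with overlap among all 3 genotypes.

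**Figure D3:**
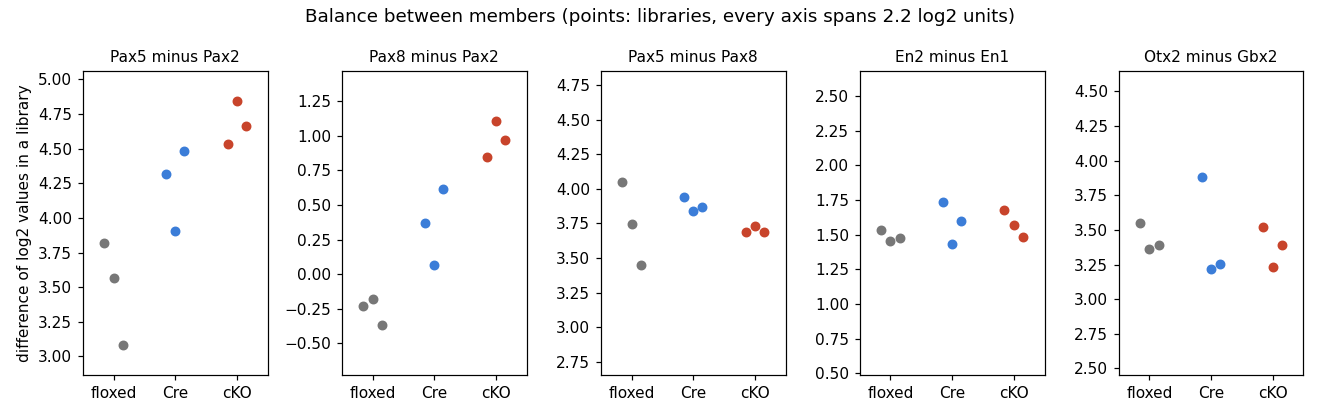
Difference of the log2 values of 2 members in the same library (vertical axes, log2 units), with 1 point for each library of the floxed control, Cre control and cKO. Pax8 minus Pax2 separates the 3 genotypes, from -0.37 to -0.18, from 0.067 to 0.62 and from 0.84 to 1.11, whereas the genotypes overlap for En2 minus En1 and Otx2 minus Gbx2. Pax2 alone already sets the floxed control apart, and Pax8 alone the cKO.

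The genes with the most similar profiles over the 9 libraries were taken by the smallest root mean square difference in log2 values after each gene's mean was removed. For Pax2, whose own deviation from its mean was 0.35, these included Evx1 (0.14) and Slc6a5 (0.14). Evx1 marks interneurons of the hindbrain and spinal cord, and Slc6a5 is the glycine transporter of inhibitory neurons. Both fell in the cKO against the floxed control, by 0.57 and 0.89, and against the Cre control their log2 fold changes were -0.039 and -0.24 and did not pass (limma adjusted p = 0.819 and 0.252). For Pax5 (own deviation 0.27) the nearest genes were Klhl14 (0.079), Slc13a5 (0.098), a citrate transporter, and Ism1 (0.10), a secreted protein first found at the isthmus of the frog. For Pax8 (own deviation 0.31) they were Shisal1 (0.098), Parvb (0.12), an adaptor of integrin adhesions, and Kcnab1 (0.13), a subunit of potassium channels. Of these 6, Slc13a5 did not pass in the cKO against the Cre control (limma adjusted p = 0.141) and the other 5 were called higher there. The measure is a description over libraries that include the ones compared. The fold changes and calls of these genes thus follow largely from how the genes were picked, and add no support.

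The secreted signals of the isthmus and the Fgf feedback genes work in 1 circuit with these factors. Of 18 such genes, 13 were called higher and 0 lower in the cKO against the floxed control, with a median log2 fold change of 0.39. The 13 include Wnt1 (1.46, limma adjusted p = 1.72e-05), which was also higher in the Cre control, the other group with the Wnt1-Cre transgene. The shares over all genes tested in that comparison were 19.5% higher and 18.8% lower. Fgf8, the organizing signal, rose by 1.34 (limma adjusted p = 0.000217) and Il17rd, a membrane antagonist of Fgf signaling, by 0.91 (limma adjusted p = 0.000190). Against the Cre control 8 were called higher and 1 lower, with Fgf8 at 0.55 (limma adjusted p = 0.0278). The lower gene was Wnt1. Over all genes tested, 4.86% were called higher and 4.85% lower there. When the controls were compared with each other, 2 of the 18 were called higher, Wnt1 by 1.75 (limma adjusted p = 3.47e-06) and Dusp6, a phosphatase induced by Fgf, by 0.48 (limma adjusted p = 0.0152).

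Among 12 transcription factors and cofactors that work beside the members, 4 were called higher and 5 lower in the cKO against the floxed control. Over all genes tested, 19.5% were called higher and 18.8% lower in that comparison. Hes3, a repressor that keeps isthmic cells undifferentiated, rose by 1.52 (limma adjusted p = 0.000127), and Sp8, which acts downstream of Fgf8 at the isthmus, by 0.73 (limma adjusted p = 0.000479). Both also rose against the Cre control, Hes3 by 0.99 and Sp8 by 0.59 (limma adjusted p = 0.00183 and 0.00676), and they were the only 2 of the 12 called there. Hes1 and Tle4 rose by 0.29 and 0.14 against the floxed control. Meis2, a homeodomain cofactor that binds Otx2 in the tectum, fell by 0.57, and Meis1, Pbx3 and Tle1 fell by between 0.23 and 0.46. Lmx1b, which maintains Wnt1 and Fgf8 at the isthmus, had a log2 fold change in the cKO of -0.0098 against the floxed control and of -0.18 against the Cre control (limma adjusted p = 0.950 and 0.279). Efna5, an ephrin graded across the tectum whose expression follows the engrailed factors, was lower by 0.43 in the cKO against the Cre control (limma adjusted p = 0.0195) and not against the floxed control (-0.15, limma adjusted p = 0.187). Efna2 was not called.

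**Figure D4:**
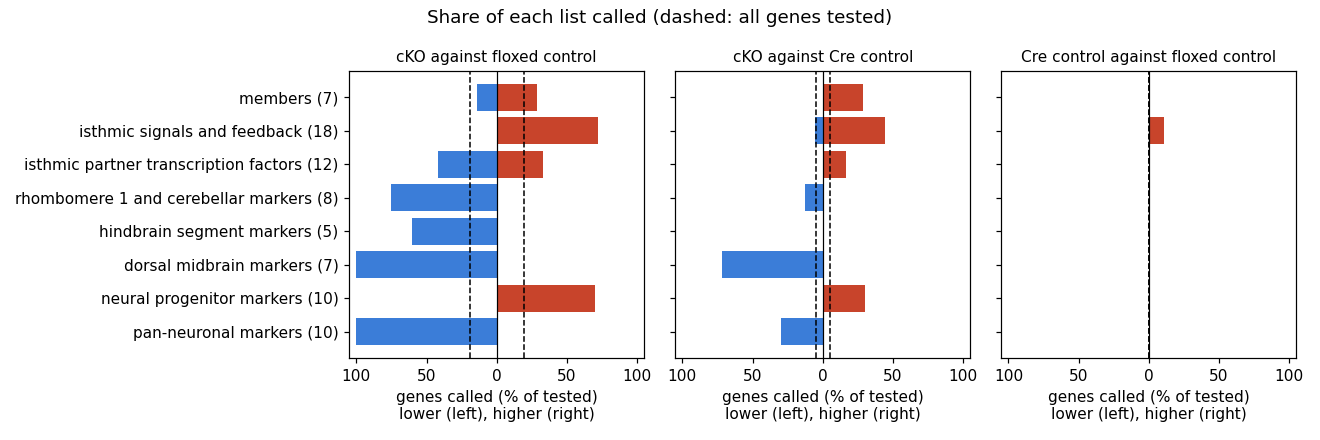
Share of the genes of each list called higher (right) or lower (left) in each comparison, in percent of the genes tested (number in parentheses, the 7 factors on the top line), with the shares over all genes tested as dashed lines. In the cKO against the floxed control 13 of 18 isthmic signals and feedback genes are called higher, and all 10 pan-neuronal and 7 dorsal midbrain markers are called lower.

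All 7 dorsal midbrain markers, among them Pax7 and Pou4f1, were expressed above the filter, as were 12 of 18 forebrain and 5 of 10 hindbrain segment markers, so that transcripts of the neighbouring regions were also present. The marker lists of several cell types differed between genotypes. In bulk tissue, fewer cells of a type and less RNA per cell cannot be told apart. Relative to the floxed control, 10 of 10 pan-neuronal markers and 7 of 7 dorsal midbrain markers were called lower in the cKO, and 7 of 10 neural progenitor markers higher. Against the Cre control these counts were 3 lower, 5 lower and 3 higher. The summed linear level of the pan-neuronal markers was 5285 to 5677 cpm in the floxed control, 4202 to 5048 cpm in the Cre control and 3677 to 4110 cpm in the cKO. That of the progenitor markers was 3813 to 3996, 3936 to 4319 and 4372 to 4795 cpm. Pax5 and Pax8 thus rose in samples with more progenitor and less neuronal signal, and the part of this shift in their values was not tested.

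Markers of the neighbouring brain regions were read beside Pax2. Of 10 genes of hindbrain segments, 5 were expressed enough to test (Egr2, Hoxb1, Hoxb4, Hoxd3 and Hoxd4 were not), and 3 of them, Hoxa2, Hoxb2 and Hoxb3, were called lower in the cKO against the floxed control. None of the 5 was called in the cKO against the Cre control, and none between the controls, where their median log2 fold change (Cre control minus floxed control) was -0.87. The summed level of these markers was 24.0, 29.9 and 37.3 cpm in the floxed control libraries, 19.7, 24.2 and 20.2 cpm in the Cre control and 22.5, 22.3 and 21.9 cpm in the cKO. The third floxed control library was the highest both for these markers and for Pax2, and without it Pax2 fell by 0.44 in the cKO against the floxed control (limma adjusted p = 0.0416). Of 8 markers of rhombomere 1 and the cerebellum, among them Atoh1 and Ptf1a, 6 were called lower in the cKO against the floxed control and 1, Barhl1, against the Cre control. Their summed level was 111 to 124 cpm in the floxed control, 96.9 to 112 cpm in the Cre control and 75.3 to 84.5 cpm in the cKO. The part of the amount of hindbrain tissue in the Pax2 values was not tested. Of 18 forebrain markers 12 were tested and 1, Lhx2, was lower in the cKO against both controls.

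Other cell types were traced with their own markers. Of 12 markers of inhibitory neurons, 2 (Gata2 and Helt) were called higher and 4 lower in the cKO against the floxed control, and the same number, 2, higher against the Cre control. Of 9 dopaminergic markers tested, 4 and 3 were called lower in these comparisons, and 0 higher. Meningeal and head mesenchyme markers were higher in 8 of 12 and erythroid markers in 4 of 6 against the floxed control, and in 0 and 4 against the Cre control. Their summed levels were 1119 to 2053, 1468 to 2374 and 2355 to 2480 cpm for the mesenchyme and 2907 to 5175, 3519 to 4011 and 4982 to 8950 cpm for the erythroid list, in the floxed control, Cre control and cKO. Choroid plexus markers were lower in 2 of 9 and endothelial markers higher in 2 of 5 against the floxed control, and none of either against the Cre control. None of the 5 microglia markers was called. Of all genes tested, 19.5% were called higher and 18.8% lower in the cKO against the floxed control. The shares against the Cre control were 4.86% and 4.85%. Counts such as 2 of 12 higher or 2 of 9 lower against the floxed control thus lie near the background. The 4 of 12 inhibitory markers called lower there are a larger share than the background. The part of these cell types in the values of Pax2, Pax5 and Pax8 was not tested.

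The genotype labels were checked on Gpr161 and on Wnt1. Gpr161 had log2 values of 11.80, 11.74 and 11.78 in the floxed control, 11.77, 11.91 and 11.96 in the Cre control and 11.74, 11.95 and 11.94 in the cKO. The cKO libraries had no less of it, with a difference of 0.11 from the floxed control (limma adjusted p = 0.223) and of 0.00033 from the Cre control (limma adjusted p = 0.998), so that its level does not tell the libraries labelled cKO from the others. Wnt1 had log2 values of 9.08 to 9.25 in the floxed control, 10.89 to 11.01 in the Cre control and 10.57 to 10.80 in the cKO, which separates the libraries with the transgene from those without. The cKO and the floxed control differ both in the transgene and in the Gpr161 alleles that were recombined, and the parts of these in a member's difference cannot be told apart in that comparison. The cKO and the Cre control share the transgene and differ in the second floxed allele.

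The members lie on 6 chromosomes in the GENCODE annotation of GRCm38. En1 (chr1:120602418-120607992, plus strand) and Gbx2 (chr1:89927956-89931179, minus strand) share chromosome 1. En2 lies at chr5:28165694-28172166 on the plus strand, and Otx2 at chr14:48657677-48673819 on the minus strand. Pax2 spans chr19:44756045-44837871 on the plus strand, Pax5 chr4:44524757-44710487 and Pax8 chr2:24420560-24475599, both on the minus strand, so that the members that were called are not neighbours in the genome.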

How the data were processed

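Poly-A selected RNA from midbrain of 9 fetuses at E13.5, 3 per genotype, was sequenced by the authors, whose processing notes name FastQC 0.10.1, kallisto 0.46.1, DESeq2 and mm10 without their roles. The authors deposited 1 table of log2 values, normalized between libraries; the transformation is not given in the sources used here. The values look shrunk at low expression, which was not tested. Such shrinkage would understate changes of weakly expressed genes. The table holds no read counts, so the depth of the libraries is unknown.

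Genes were tested if they had a symbol and reached 1 cpm (counted on linear values) in 3 or more of the libraries, and repeated symbols were reduced to the highest row, which left 14029 genes. The model held a mean per genotype and used the 9 libraries together (limma 3.58.1 under R 4.3.3, eBayes with a trend, two-sided, Benjamini-Hochberg adjustment over all genes). A gene was called at an adjusted p under 0.05. The model was also run on simulated data in which 200 genes were changed, and the outcome is not reported here. Libraries with the same replicate number were not treated as pairs. The labels do not tie a number to a litter or day, and 5 of 9 same-number correlations of the deviations from the group means were over 0.1 (-0.027 to 0.26), against 3 of 18 with other numbers (-0.28 to 0.16), so that the rule that every pair exceed 0.1 was not met. Lists of genes were written from general knowledge, and the genes with nearest profiles were the 3 with the smallest difference from each called member. Some genes that these rules name are not reported here. The members, the lists and the tests were chosen with earlier results of these data known. The alternatives were the omission of each library, a replicate block, other filters and scalings, the 6 libraries compared alone, no trend, and another limit. Positions came from GENCODE M21, where all 7 members matched.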

Additional observations from a re-analysis of the deposited data

How the results depend on the processing

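In the cKO against the floxed control, between 2 and 3 members were called under every alternative run, always with Pax8, and with Pax5 except where a fold change over 1.5 was also asked for (Pax2 and Pax8). Of the 2 members called in the cKO against the Cre control, between 0 and 2 remained with each library left out in turn (0 without replicate 2 or replicate 3 of either genotype). In that comparison 1, Pax8, was called with the replicate block, with only the 6 libraries compared and without the trend, and 0 without a filter on low values or with a fold change over 1.5 as a further limit. The limma adjusted p of Pax5 there ran from 0.0323 to 0.135 and that of Pax8 from 0.0165 to 0.0719 over the 13 alternatives, and 5 and 8 of these passed. The replicate block changed no other call of a member. The cause of these losses was not tested. Between the controls, 1 member in place of 0 was counted at an unadjusted p under 0.05. The differences that changed sign were all uncalled and did so as single libraries were left out. In the cKO against the floxed control these ran from -0.016 to 0.22 for En1 and from -0.017 to 0.077 for Otx2. In the cKO against the Cre control they ran from -0.15 to 0.094 for En1, from -0.12 to 0.040 for En2, from -0.19 to 0.077 for Pax2 and from -0.20 to 0.066 for Gbx2. With the Cre control set against the floxed control, Pax8 ran from -0.057 to 0.18. Of the member differences recomputed, 247 kept direction and side of the threshold, 15 lost the call, 1 gained it and 10 changed sign. Since the table holds no read counts, the precision that depth allows could not be given.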
